A study of Mus musculus with 6 samples.

Results

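The genes described here are 10 genes of the vascular endothelial growth factor (VEGF) and angiopoietin systems and of the capillary endothelium: Vegfa, Vegfb, Kdr, Flt1, Tek, Ptprb, Emcn, Pecam1, Cdh5 and Angpt1. They were taken by gene symbol from 19938 genes measured in soleus, a slow muscle of the mouse calf that bears weight in standing, and each was represented by 1 transcript cluster, the set of probes that reads 1 gene. The 6 arrays formed 3 groups of 2. Control soleus came from mice with no treatment named in the labels, suspension soleus from mice under hindlimb suspension, in which the hind limbs are lifted off the ground and carry no weight, and the remaining soleus from mice that had hindlimb suspension and electroacupuncture, the passing of current through acupuncture needles. Every sample was labelled as soleus of male C57BL/6 mice aged 8 weeks. The duration of suspension and the current, sites and schedule of the acupuncture are not given in the sources used here. Nor do the sources say if each array held RNA of a different mouse, so p-values measure the spread between arrays, which may be technical.

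VEGF-A is the main growth signal for capillaries and in muscle is made largely by the fibres themselves, while its receptors are carried by the endothelium. VEGFR2 (Kdr) passes the signal on, VEGFR1 (Flt1) binds both VEGF-A and VEGF-B and acts partly as a decoy, and VEGF-B, a relative with a weak effect on vessel growth, is abundant in oxidative muscle. Angiopoietin-1 (Angpt1) activates the receptor TIE2 (Tek) and stabilises vessels, and the phosphatase VE-PTP (Ptprb) restrains TIE2 and VEGFR2. Endomucin (Emcn), PECAM-1 (Pecam1) and VE-cadherin (Cdh5) are surface and junction proteins that mark endothelial cells.

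The sequences before the starts of the 3 genes that were lower at an adjusted p under 0.05 in at least 1 comparison are shown first. They are the 250 bases before the RefSeq start on GRCm38.p6, 5′ to 3′ on the strand of the gene. Windows were at hand for 6 of the 10 genes (Vegfa, Vegfb, Kdr, Flt1, Tek and Emcn). Capitals mark GCGTG, a core of the hypoxia response element, and GGGCGG, the GC box, on either strand. The GC box was added to the search after the sequences were seen.

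Vegfa (chr17:46032378-46032627, minus strand): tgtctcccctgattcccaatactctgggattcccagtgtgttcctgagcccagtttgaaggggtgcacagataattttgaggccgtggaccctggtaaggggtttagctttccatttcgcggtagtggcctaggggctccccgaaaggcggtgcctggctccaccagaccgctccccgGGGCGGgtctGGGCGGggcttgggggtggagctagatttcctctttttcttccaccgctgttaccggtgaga
Vegfb (chr19:6987652-6987901, minus strand): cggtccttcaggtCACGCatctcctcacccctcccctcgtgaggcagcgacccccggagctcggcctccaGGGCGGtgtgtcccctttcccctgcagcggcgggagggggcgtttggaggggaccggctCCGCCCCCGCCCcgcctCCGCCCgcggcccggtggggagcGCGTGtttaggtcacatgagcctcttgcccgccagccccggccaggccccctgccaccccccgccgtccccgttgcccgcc
Kdr (chr5:75978456-75978705, minus strand): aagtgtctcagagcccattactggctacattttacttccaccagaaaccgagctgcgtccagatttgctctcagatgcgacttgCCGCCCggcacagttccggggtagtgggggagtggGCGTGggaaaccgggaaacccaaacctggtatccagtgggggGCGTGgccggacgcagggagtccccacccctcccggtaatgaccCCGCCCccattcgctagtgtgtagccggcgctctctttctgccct

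The Vegfa window held 2 GC boxes, 72 and 62 bases before the start, and no GCGTG. A second RefSeq window of Vegfa, at an alternative start and not shown, held 1 of each. The Vegfb window held 4 GC boxes and 2 hypoxia cores, 237 and 81 bases before the start. The Kdr window held 2 GC boxes and 2 hypoxia cores, at 131 and 89 bases. Genes that were not called held these motifs too. The Flt1 window held 3 GC boxes and 1 hypoxia core, the Emcn window 1 hypoxia core and no GC box, and the Tek window neither. Among 32851 windows of the same length, 32.7% held the GC box and 28.2% this hypoxia core.

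The other motifs searched, also on both strands, were in none of the 3 windows shown. They were ACGTG, a second form of the hypoxia core (16.6% of all windows), the estrogen-related receptor site AAGGTCA (4.08%) and the ETS core CAGGAAG (10.8%). The second Vegfa window held the second form of the hypoxia core once. The Emcn window held AAGGTCA and CAGGAAG once each. The matches describe letters in these windows and are no evidence of binding.

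Signals are log2 values, in which a step of 1 is a doubling. The array medians over all genes ran from 4.55 to 4.61, and the rank correlation between 2 arrays from 0.981 to 0.991. All 10 genes had a mean signal above 3.50, the 95th percentile of 1027 olfactory receptor genes (a yardstick for background that was picked with the values in view). The slow myosin gene Myh7, which defines slow fibres, had signals from 11.62 to 12.02 on the 6 arrays. All 16 measured muscle fibre genes and all 29 further endothelial markers also lay above the background level. The median absolute gap between duplicate arrays, over all genes, was 0.21 for control, 0.16 for suspension and 0.14 for electroacupuncture. Over the 10 genes it was 0.11, 0.23 and 0.10. With 2 arrays a group, precision is limited by their number.

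Suspension against control asks what unloading does to the soleus. In suspended soleus the VEGF ligand genes Vegfa and Vegfb fell, with log2 differences of -1.37 and -0.73. No receptor or endothelial marker passed the test, and the differences of Kdr and Angpt1 were -0.59 and -0.87. In whole muscle, fewer endothelial cells and less RNA per cell cannot be told apart. Vegfa and Vegfb were the 2 of the 10 genes called, against 1.05% of all genes called in either direction. The median difference of the 10 genes was -0.24, beside 0.01 over all genes. It was -0.38 without suspension array 1 and -0.15 with genes below the median signal left out.

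The comparison of suspension with electroacupuncture against suspension alone asks what the treatment adds. None of the 10 genes passed in limma, as none of the 19938 genes did (0% called). At an unadjusted p under 0.05 there were 4 of the 10 genes, Kdr, Tek, Ptprb and Emcn, all lower in the treated group, and 612 of all genes. The 7 endothelial genes (Kdr, Flt1, Tek, Ptprb, Emcn, Pecam1 and Cdh5) all had lower means in the treated group, with a median difference of -0.37 beside -0.01 over all genes. Vegfa and Vegfb differed by -0.05 and -0.14.

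In suspension with electroacupuncture against control, Vegfa, Vegfb and Kdr were lower, 3 of the 10 genes against 1.03% of all genes called. All 10 differences were below 0, with a median of -0.55. With both suspended groups averaged and set against control, the same 3 genes were lower, against 2.18% of all genes called. These comparisons share arrays. The control arrays enter every comparison except that between the suspended groups, and each suspended group enters 3 of the 4. Agreement between them is therefore no independent support.

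**Figure D1:**
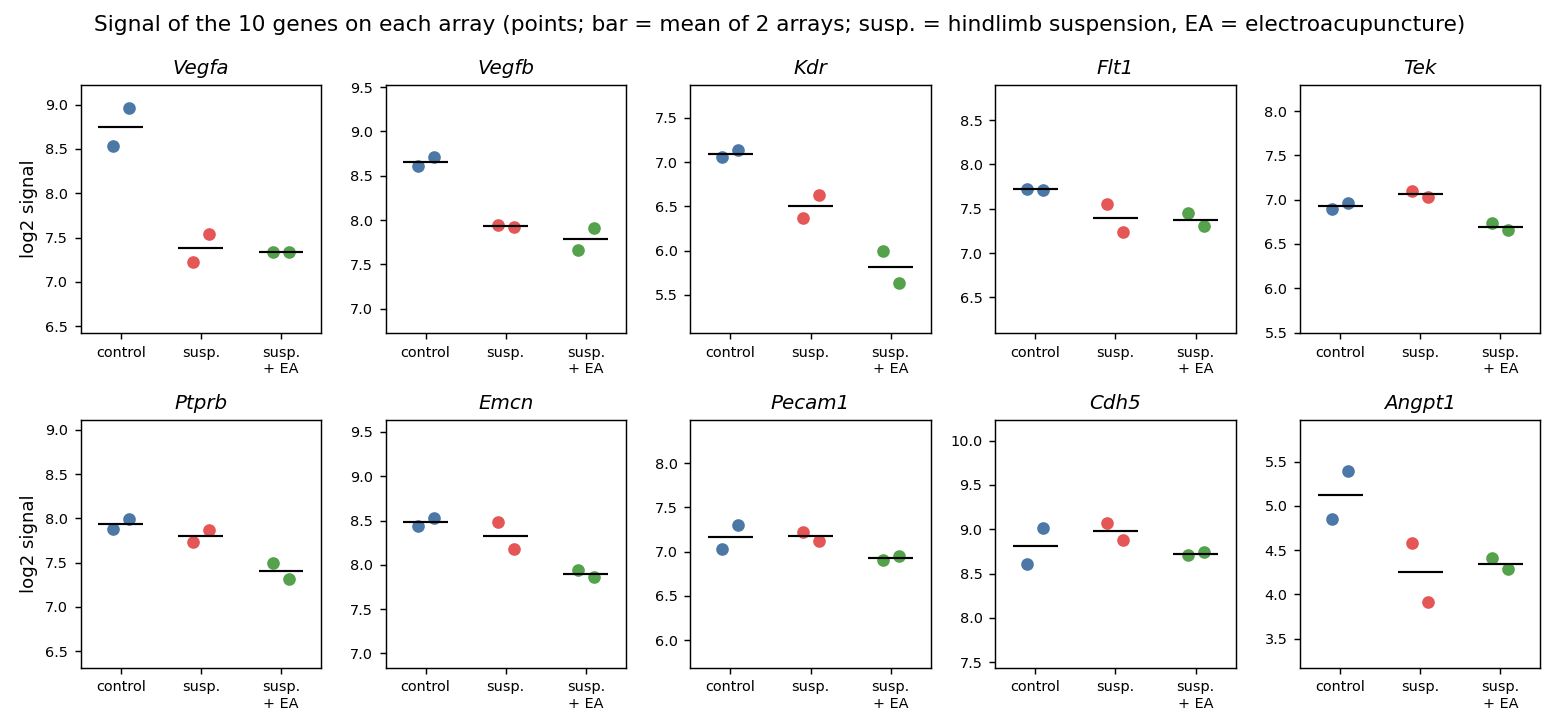
Log2 signal (vertical axis, with the same span in every panel) of the 10 genes on the control, suspension and suspension with electroacupuncture arrays. Points are arrays and bars are means of 2 arrays. Vegfa and Vegfb sit lower on all 4 suspended arrays than on the control arrays, and Kdr steps down from control to suspension to the electroacupuncture group.

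Vegfa, the VEGF-A gene, had signals of 8.54 and 8.96 on the control arrays, 7.22 and 7.54 on the suspension arrays, and 7.33 and 7.34 on those of the electroacupuncture group. The 4 suspended arrays were all lower than both control arrays, and the suspended groups overlapped each other. Separate ranges are frequent with 2 arrays a group. Suspended and control arrays did not overlap for 24.8% of all genes, beside 60% of the 10. For suspension against control, the suspended groups against each other, and electroacupuncture against control the shares were 39.8%, 32.6% and 41.8% of all genes. For the 10 genes they were 70%, 70% and 90%. The means were 8.75 ± 0.30 for control, 7.38 ± 0.22 for suspension and 7.33 ± 0.0026 with electroacupuncture (SD, n = 2). Suspension minus control was -1.37 ± 0.17 (SE), a 2.58-fold lower signal (limma adjusted p = 0.0131). The fall was 1.42 ± 0.17 for the electroacupuncture group against control (adjusted p = 0.0111), and this call was lost without either array of that group (adjusted p = 0.139 and 0.114) and with every transcript cluster tested by itself (adjusted p = 0.13). Between the suspended groups the difference was -0.05, with a 95% interval from -0.44 to 0.35. The fall in suspension no longer passed without suspension array 1 (-1.21, adjusted p = 0.0954) or with every transcript cluster tested by itself (adjusted p = 0.137).

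Vegfb, the VEGF-B gene, read 8.61 and 8.71 on the control arrays, 7.94 and 7.92 on the suspension arrays, and 7.66 and 7.92 on the electroacupuncture arrays. Again every suspended array was below every control array. The fall was 0.73 ± 0.14 in suspension, 1.66-fold (adjusted p = 0.0474), and 0.87 ± 0.14 in the electroacupuncture group, 1.83-fold (adjusted p = 0.0267). In the electroacupuncture group the call of Vegfb was lost in 7 settings, with adjusted p up to 0.284. The suspension result lay close to the threshold and lost its call in 12 settings, among them those with each of the 6 arrays left out. Its difference in those with an array left out ran from -0.78 to -0.68, with adjusted p from 0.0619 to 0.224. Other ligand genes and a related gene showed no call. The 6 measured genes were Vegfc, Vegfd, Pgf, Angpt2, Angpt4 and Angptl4, an angiopoietin-like gene. In suspension 3 lay above and 3 below control, with a median of -0.02. That median was -0.13 without suspension array 1. With genes below the median signal left out it was 0.19, the difference of Angptl4. Pgf, whose placental growth factor binds VEGFR1, differed by 0.28 (adjusted p = 0.626), and Vegfd, mainly a lymphatic growth factor, by -0.18 (adjusted p = 0.713).

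Kdr, which encodes the signalling receptor VEGFR2, had signals of 7.06 and 7.13 in control, 6.37 and 6.63 in suspension, and 6.00 and 5.63 in the electroacupuncture group. The 3 groups did not overlap, with control highest and the electroacupuncture group lowest. The means were 7.09 ± 0.05, 6.50 ± 0.18 and 5.81 ± 0.26 (SD, n = 2). The electroacupuncture group fell by 1.28 ± 0.17 from control, 2.43-fold (limma adjusted p = 0.0135), and this call was lost without either array of that group (adjusted p = 0.0708 and 0.143). Suspension minus control was -0.59 ± 0.17 (adjusted p = 0.158). Electroacupuncture minus suspension was -0.69 ± 0.17, with an unadjusted p of 0.00258 and an adjusted p of 1.00, so the suspended groups were not shown to differ.

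Flt1, the gene of VEGFR1, passed in no comparison. It read 7.72 and 7.71 in control, 7.55 and 7.24 in suspension, and 7.45 and 7.30 in the electroacupuncture group. Every suspended array was below control, and the suspended groups overlapped. Suspension minus control was -0.32 ± 0.15 (adjusted p = 0.406), or -0.17 without suspension array 2, and the electroacupuncture group minus suspension was -0.02, with a 95% interval from -0.35 to 0.31. Of the 8 other receptors and co-receptors (Flt4, Nrp1, Nrp2, Tie1, Itgav, Itgb3, Gpc1 and Sdc2) none was called in any comparison. In suspension 5 of the 8 lay above control (median 0.07, and -0.09 without suspension array 1). The smallest p there were those of Gpc1 (0.33, adjusted p = 0.399) and Nrp2 (0.25, adjusted p = 0.541). All 8 lay lower in the electroacupuncture group than in suspension (median -0.15; 6 of 8 and -0.05 without suspension array 1), among them Tie1, a partner of TIE2, at -0.28, and the neuropilin gene Nrp2 at -0.18 (adjusted p = 1.00 for both).

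Tek, which encodes the angiopoietin receptor TIE2, had signals of 6.90 and 6.96 in control, 7.09 and 7.04 in suspension, and 6.73 and 6.65 in the electroacupuncture group. Suspension was the highest group and the electroacupuncture group the lowest, with no overlap. The difference was 0.14 ± 0.13 for suspension minus control (adjusted p = 0.739) and -0.37 ± 0.13 for electroacupuncture minus suspension (unadjusted p = 0.0166, adjusted p = 1.00). Ptprb, the VE-PTP gene, read 7.88 and 7.99, then 7.73 and 7.87, then 7.50 and 7.32 in the same order of groups. Its suspension arrays were just below control and its electroacupuncture arrays below all others. Its differences were -0.39 ± 0.13 from suspension (unadjusted p = 0.0166, adjusted p = 1.00) and -0.53 ± 0.13 from control (adjusted p = 0.128).

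Angpt1, the TIE2 ligand gene, was the dimmest and most variable of the 10. It read 4.85 and 5.39 in control, 4.58 and 3.92 in suspension, and 4.41 and 4.28 in the electroacupuncture group. All suspended arrays were below both control arrays, but the gap between the suspension arrays, 0.67, was the widest of any of the 10 genes in any group. The difference was -0.87 ± 0.25 in suspension (adjusted p = 0.171) and -0.77 ± 0.25 in the electroacupuncture group (adjusted p = 0.232), neither of which passed. The first was -0.54 without suspension array 2, and the second -0.50 without control array 2.

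**Figure D2:**
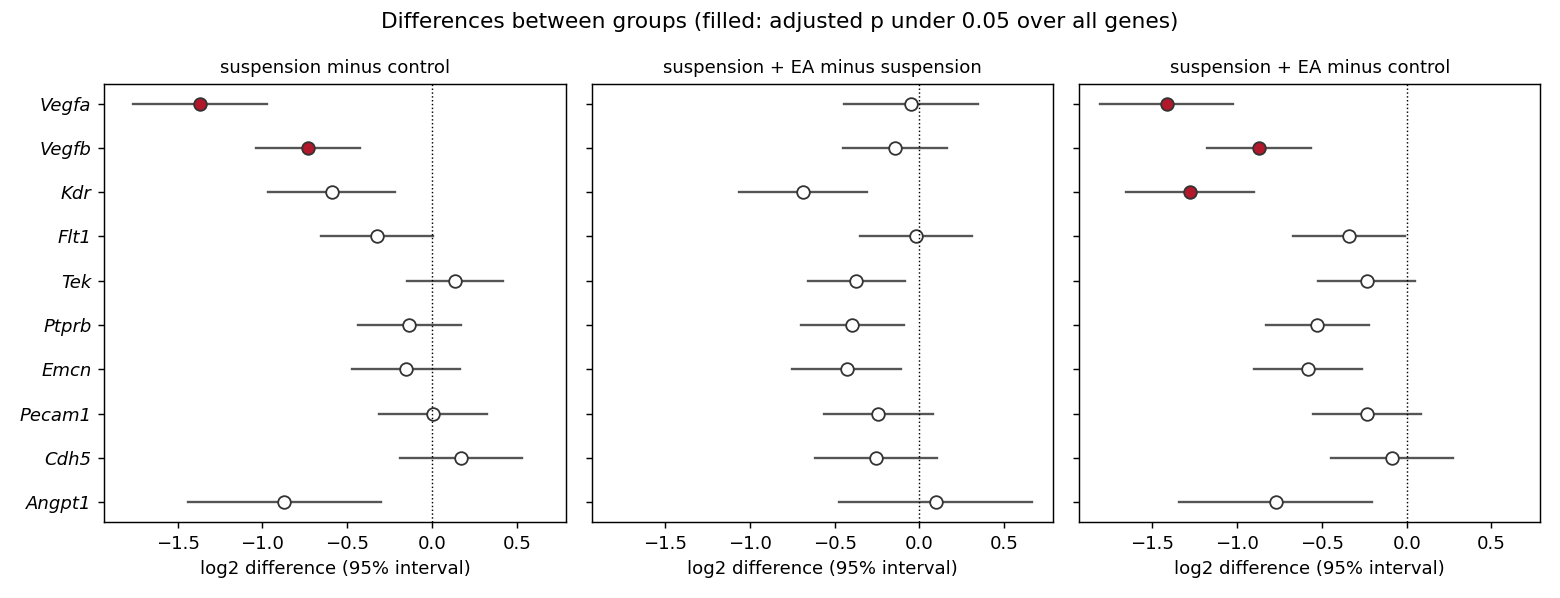
Log2 differences (horizontal axis) of the 10 genes in 3 comparisons, with 95% intervals from limma; filled points passed an adjusted p of 0.05 over all genes. Vegfa and Vegfb are filled against control in both suspended groups and Kdr in the electroacupuncture group, and no point is filled between the suspended groups.

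None of the endothelial surface genes passed in a comparison. Emcn, the endomucin gene, read 8.44 and 8.52 in control, 8.48 and 8.18 in suspension, and 7.94 and 7.86 with electroacupuncture. These last arrays were below the other 4, and control and suspension overlapped. Its difference was -0.15 ± 0.14 for suspension minus control (adjusted p = 0.739; -0.0011 without suspension array 2 and -0.30 without array 1), -0.43 ± 0.14 for electroacupuncture minus suspension (unadjusted p = 0.0141, adjusted p = 1.00) and -0.58 ± 0.14 for the treated group minus control (adjusted p = 0.11).

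Pecam1, which encodes the junction protein PECAM-1, had signals of 7.03 and 7.30 in control, 7.23 and 7.12 in suspension, and 6.91 and 6.95 in the electroacupuncture group. Control and suspension overlapped, and their difference of 0.01 had a 95% interval from -0.31 to 0.33; its sign turned with quantile normalization again (-0.01), with cyclic loess (-0.03), and without control array 1 or suspension array 1. Cdh5, the VE-cadherin gene, read 8.60 and 9.01 in control, 9.08 and 8.88 in suspension, and 8.71 and 8.74 in the electroacupuncture group. Control overlapped both other groups. The difference was 0.17 ± 0.16 for suspension minus control (adjusted p = 0.741; -0.033 without control array 1) and -0.26 ± 0.16 for electroacupuncture minus suspension (adjusted p = 1.00), and -0.16 without suspension array 1.

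The 7 endothelial genes were also read together, as each gene's signal minus its mean over the 6 arrays, averaged over the 7. That mean was 0.13 and 0.27 on the control arrays, 0.11 and 0.03 on the suspension arrays, and -0.22 and -0.33 on the electroacupuncture arrays. All 7 genes were below their own means on both electroacupuncture arrays, from -0.05 for Flt1 on array 1 to -0.84 for Kdr on array 2. The median of the 7 differences between the suspended groups stayed between -0.41 and -0.28 in every setting in which it was computed. It was -0.35 with cyclic loess, where 6 of the 7 were below 0, as they were without suspension array 1 or electroacupuncture array 2.

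A longer list of 29 other endothelial markers gave no call in any of the 4 comparisons. In suspension 22 of the 29 lay below control, with a median of -0.17 (-0.27 with control array 1 left out, -0.11 with suspension array 2 left out) beside 0.01 over all genes. In the electroacupuncture group 22 lay below suspension, with a median of -0.07, and without suspension array 1 that median was 0.04. The members with the smallest p were Gpihbp1, which anchors lipoprotein lipase on the capillary wall (-0.58, adjusted p = 0.155), and the flow-responsive factor gene Klf4 (-0.54, adjusted p = 0.168) in suspension minus control. Between the suspended groups they were Arhgef15 (-0.34) and Cyyr1 (-0.29), each with an adjusted p of 1.00. The nitric oxide synthase gene of endothelium, Nos3, differed by -0.16 in suspension (adjusted p = 0.775).

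Among 30 other angiogenic growth factor and receptor genes 1 was called, and only with both suspended groups together, a share near the 2.18% of all genes called there. Eng, the endoglin gene, a TGF-beta co-receptor of endothelium, read 8.08 and 8.33 in control, 7.72 and 7.68 in suspension, and 7.43 and 7.54 in the electroacupuncture group. Every suspended array was below control. It fell by 0.62 ± 0.12 in both suspended groups together (adjusted p = 0.0345), while neither group passed by itself (adjusted p = 0.138 and 0.0503). In suspension 14 of the 30 lay above and 16 below control (median -0.05, and 0.08 without suspension array 2). At an unadjusted p under 0.05 there were 5 higher and 4 lower, beside 1322 higher and 1215 lower of all 19938 genes. After Eng the smallest p were those of Notch4, an endothelial Notch receptor gene (-0.49, adjusted p = 0.179), and Pdgfrb, the pericyte receptor gene (0.50, adjusted p = 0.214). Efnb2, the arterial ligand gene ephrin-B2, and the apelin receptor gene Aplnr had the smallest p between the suspended groups, at -0.53 and -0.44 (adjusted p = 1.00 for both).

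**Figure D3:**
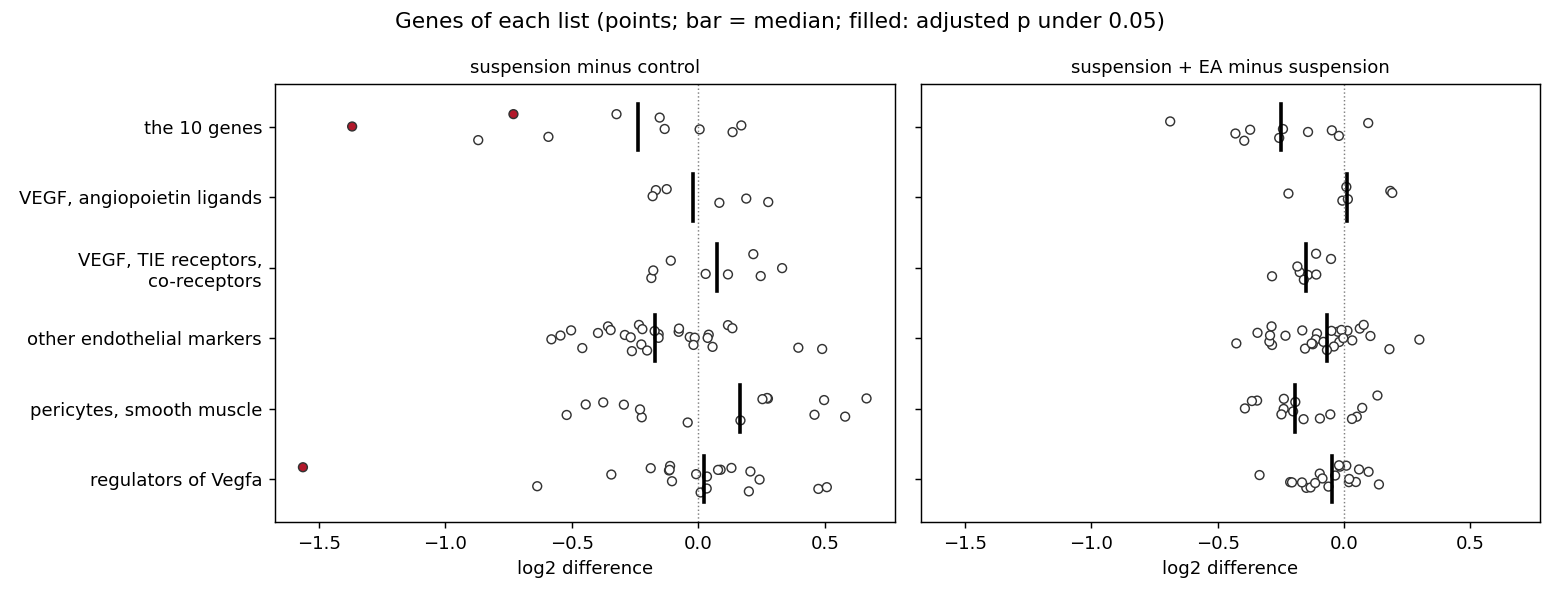
Log2 differences (horizontal axis) of single genes, as points, in the 10 genes and 5 related lists, for suspension minus control and for suspension with electroacupuncture minus suspension; bars are medians and filled points passed an adjusted p of 0.05. The filled points are Vegfa and Vegfb among the 10 genes and Ppargc1a among the regulators of Vegfa, all in suspension minus control.

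Of 20 genes that regulate Vegfa through oxygen sensing or the PGC-1 coactivators, 1 fell, both in suspension and with electroacupuncture, beside 1.05% and 1.03% of all genes called. Ppargc1a, the gene of the coactivator PGC-1alpha, which can raise Vegfa in muscle, read 8.79 and 9.49 in control, 7.50 and 7.65 in suspension, and 7.86 and 7.57 in the electroacupuncture group. Of its 2 transcript clusters, only the cluster with the higher mean is given here. All suspended arrays were below control, with differences of -1.56 ± 0.22 (adjusted p = 0.0189) and -1.42 ± 0.22 (adjusted p = 0.0252). Its partner Esrra, an estrogen-related receptor gene, differed by -0.19 ± 0.14 in suspension (adjusted p = 0.652). The hypoxia factor genes Hif1a and Epas1 differed by -0.12 and -0.11 (adjusted p = 0.813 and 0.805). Arnt, the gene of their shared partner, differed by 0.48 (adjusted p = 0.124). The median of the 20 was 0.02.

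The genes with the most similar pattern were found among 9662 candidates whose mean signal reached the median of all genes, by the root mean square difference of gene-centred log2 signals over the 6 arrays. Nearest to Vegfa was Npr3 (0.069), a natriuretic peptide clearance receptor gene, followed by Ppara (0.14), a nuclear receptor gene of fatty acid oxidation, Tnfrsf12a (0.15), the TWEAK receptor gene, Ppargc1a (0.15) and Id1 (0.16). Their differences in suspension were -1.41, -1.14, -1.45, -1.56 and -1.21. Since they were chosen for likeness to Vegfa on the same arrays, their direction and size follow from that choice. Of the other 9 genes described here Vegfb (0.32) and Kdr (0.37) had the patterns nearest to that of Vegfa.

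Nearest to the mean of the 7 endothelial genes were Shroom4 (0.028), Mrps34 (0.041), a mitochondrial ribosomal protein gene, the venous ephrin receptor gene Ephb4 (0.046), the junction gene F11r (0.046) and Aplnr (0.047). Their differences between the suspended groups ran from -0.44 for Aplnr to -0.30 for Shroom4, which likewise follows from the choice. Of the 7 genes themselves Ptprb lay nearest to the mean (0.073) and Kdr farthest (0.35).

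**Figure D4:**
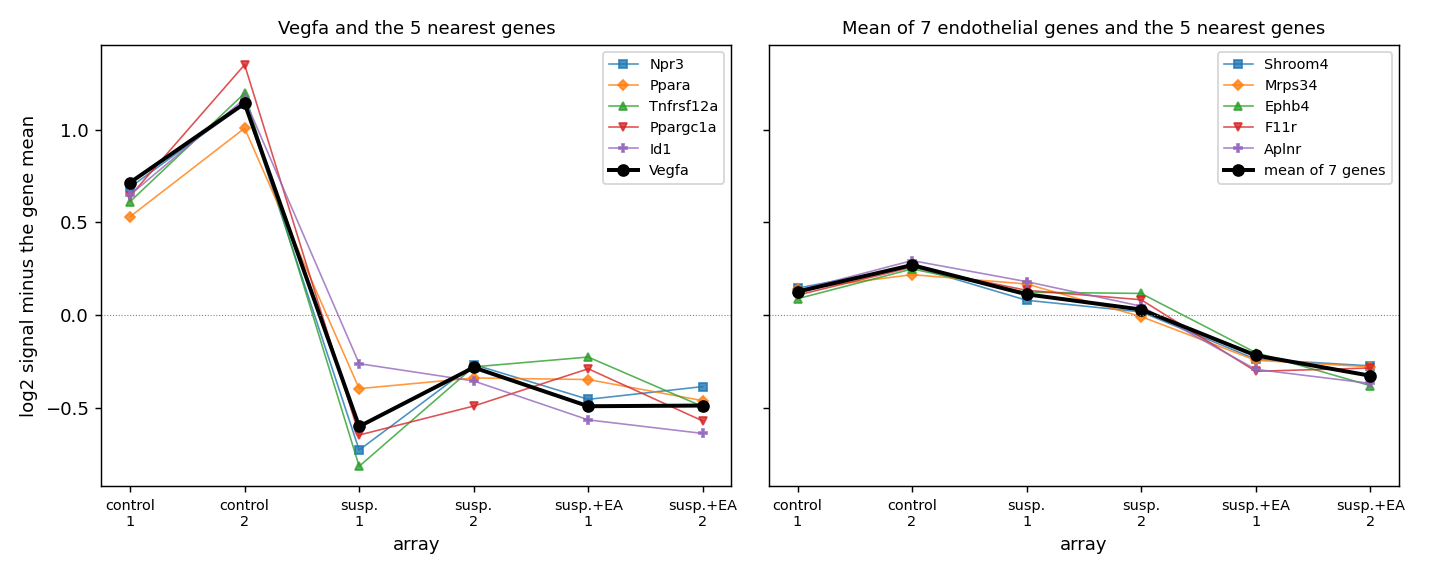
Log2 signal minus the gene's mean (vertical axis) on each of the 6 arrays for Vegfa (left, black) and for the mean of 7 endothelial genes (right, black), with the 5 genes of most similar pattern in colour. Vegfa is high on the control arrays (0.71 and 1.14) and below 0 on the other 4, while the endothelial mean is below 0 only on the electroacupuncture arrays (-0.22 and -0.33).

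Markers of other cell types were read on the same arrays, and their part in the values above was not tested. None of 11 adipocyte markers was called, but their mean deviation was 0.88 on control array 2 and between -0.41 and 0.07 on the other 5 arrays. Vegfa was also higher on control array 2 than on control array 1, and without control array 2 its difference in suspension was -1.16 (adjusted p = 0.0255). The log2 of the summed adipocyte signals was 12.09 and 12.77 for control, 12.17 and 12.21 for suspension and 12.23 and 12.18 with electroacupuncture. Of 15 pericyte and smooth muscle markers none was called, and 8 lay above control in suspension (median 0.17, and -0.14 without suspension array 1). The log2 of their summed signals was 10.97 and 11.20, 11.34 and 11.17, and 11.14 and 11.03 in the same order of groups. In the electroacupuncture group 11 of the 15 lay below suspension (median -0.19, and -0.02 without suspension array 1), among them the capillary pericyte channel genes Kcnj8 (-0.39) and Abcc9 (-0.34). In suspension minus control these 2 genes differed by 0.28 and 0.67 (adjusted p = 0.395 and 0.0594). In the electroacupuncture group minus control they differed by -0.12 and 0.32 (adjusted p = 0.795 and 0.347).

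Of 12 macrophage markers none was called, and 10 lay above control in the electroacupuncture group (median 0.50, and 0.26 without control array 1). Their summed log2 signal was lowest on control array 1, at 8.998, and highest on electroacupuncture array 1, at 10.34. Of 3 red cell genes all lay lower in the electroacupuncture group than in suspension (median -0.33, and -0.19 without electroacupuncture array 2), with no call. Their summed log2 signals were 5.74 and 6.53, 6.46 and 5.96, and 6.03 and 5.68, and Epb42 among them had a mean below the background level. Of 6 lymphatic markers 1 fell, Reln, the reelin gene, with a difference of -1.59 in suspension (adjusted p = 0.00753, where 1.05% of all genes were called). Reln was also lower in the electroacupuncture group minus control (-1.10, adjusted p = 0.0271, where 1.03% of all genes were called). Among the lymphatic markers Mmrn1 had a mean below background. The summed log2 signals of the 6 were 8.18 and 8.27, 8.32 and 7.70, and 8.15 and 7.94. Of 10 fibroblast and tendon markers 1 fell in suspension, the tendon gene Tnmd (-1.94), beside 1.05% of all genes called. In the electroacupuncture group 2 fell, Tnmd and the tendon factor gene Scx (-0.96), beside 1.03% of all genes called. The summed log2 signals of the 10 markers were 12.42 and 12.39, 12.27 and 11.95, and 12.40 and 12.40. The 16 muscle fibre genes had a median of -0.0038 in suspension and summed log2 signals from 16.01 to 16.17. Of the 16, 3 were called higher in suspension (Myh1, Myh4 and Actn3) and 1 lower (Myh2), beside 1.05% of all genes called.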

How the data were processed

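Total RNA of mouse soleus was extracted with Trizol, labelled with biotin and hybridized to Affymetrix 1.0 ST arrays. The authors made the log2 signals, 35556 transcript clusters in all, with RMA in Affymetrix Expression Console, per the submitters' processing notes. The software version and genome build are not given in the sources used here. RMA equalises the distribution of all arrays, so a shift common to most genes would not be seen.

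Clusters with 1 gene symbol in the platform annotation (21789) were kept, and the cluster of highest mean per symbol, giving 19938 genes. Groups came from the sample titles. With limma 3.58.1 (R 4.3.3) 1 linear model of the 3 groups was fitted to all 6 arrays. Its moderated variances followed a trend on signal, with 5.88 prior and 3 residual degrees of freedom. The procedure was tested on simulated data first. Tests were two-sided, and p-values were adjusted over all genes by the Benjamini-Hochberg method at 0.05. The errors of differences are limma standard errors.

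The members and the 15 gene lists, written from general knowledge, were chosen with earlier results of these data known. Named genes were the 10 members, every listed gene past the threshold, fixed regulators and effectors of Vegfa, and the 5 nearest patterns. In most lists with no such gene, those of smallest p in suspension minus control or between the suspended groups were named. The adipocyte and macrophage lists were read only as a whole. Genes that several lists hold count in each. Alternatives changed the variance prior, the weights of arrays, the signal filter, the normalization (3 ways), the use of clusters, the groups in the fit, the replicate block, the threshold (0.1) and the arrays, each left out in turn. A block with crossed numbers was added after seeing the data. Promoter windows came from RefSeq (GRCm38.p6).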

Additional observations from a re-analysis of the deposited data

How the results depend on the processing

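In suspension minus control, where 2 of the 10 genes were called, 1 was called without the variance trend, with array weights, with median centring, with the compared groups alone and with the replicate block, and 0 with every cluster by itself. With an array left out the count was 0 to 1, and 0 without suspension array 1. In the electroacupuncture group minus control the count of 3 became 0 with every cluster by itself and 0 to 3 with an array left out, 0 without either array of that group. For both suspended groups against control it became 0 with every cluster by itself and stayed between 2 and 3 with an array left out. Between the suspended groups it was 0 in every setting run, while between 0 and 4 of all genes were called. With every cluster by itself 1 cluster was called in each comparison with control. All genes called in suspension numbered 209, and 80 without the variance trend, 130 with array weights, 68 with the compared groups alone, 317 with quantile normalization again, 309 with cyclic loess and 16 without suspension array 1; the causes of these shifts were not tested.

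Signs turned only for differences that had not passed. In suspension minus control Pecam1 became -0.013 with quantile normalization again and -0.031 with cyclic loess, and ran from -0.13 to 0.14 with an array left out, as Cdh5 did from -0.033 to 0.37. Between the suspended groups Flt1 was 0.00015 with cyclic loess. With an array left out Flt1 ran from -0.18 to 0.14, Vegfa from -0.21 to 0.11 and Angpt1 from -0.24 to 0.43. Against control, Cdh5 ran from -0.29 to 0.12 in the electroacupuncture group. For both suspended groups Cdh5 was -0.024 with quantile normalization again and -0.0024 with cyclic loess, and ran from -0.16 to 0.25 with an array left out, and Pecam1 from -0.25 to 0.023.

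The labels do not say if same-numbered arrays share more than a number. Their deviations from the group means correlated at -0.162 (control and suspension), 0.0168 (control and electroacupuncture) and -0.0157 (the suspended groups). With 1 pair of arrays a group, these values cannot show whether they do. With the replicate block 102, 0, 127 and 258 genes were called in the 4 comparisons. With crossed numbers, added after seeing the data, the block called 266 genes in suspension, 2 of the 10 among them. Angpt1 lay nearest to the background level of the 10 genes, with a mean signal of 4.57.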

Other observations

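Of 15 measured genes in a list written for angiogenesis inhibitors, 3 fell in suspension, beside 1.05% of all genes called. These were Chad, the cartilage protein gene chondroadherin (-2.48, adjusted p = 0.00496), Tnmd, the tendon protein gene tenomodulin (-1.94, adjusted p = 0.00307), and Adamts1, a secreted protease gene (-1.28, adjusted p = 0.0188). Chad and Tnmd are known mainly from cartilage and tendon, and the fibroblast and tendon list also holds Tnmd. Chad is not an established inhibitor of vessel growth, so the counts here describe the list and not inhibitors as such. In the electroacupuncture group minus control, Tnmd and Adamts1 were lower (adjusted p = 0.0111 and 0.015), beside 1.03% of all genes called. Chad differed there by -0.12 (adjusted p = 0.899). Between the suspended groups none passed, and 10 of the 15 lay higher with electroacupuncture (median 0.28, 0.50 without suspension array 1 and 0.19 without array 2). Chad differed by 2.36 (adjusted p = 0.0601) and Timp3, a metalloprotease inhibitor gene that can block VEGFR2, by 0.85 (adjusted p = 0.337).

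Of 19 genes known to respond to low oxygen, 14 lay above control in suspension (median 0.17), beside 10196 of all 19938 genes. Among the 19, 1 was called higher and 1 lower, where 1.05% of all genes were called. Pfkfb3, which drives glycolysis, rose by 1.38 (adjusted p = 0.0251), and P4ha1, a collagen prolyl hydroxylase gene, fell with a difference of -0.91 (adjusted p = 0.0413). In the electroacupuncture group minus control Pfkfb3 also rose, by 1.60 (adjusted p = 0.015), where 1.03% of all genes were called. P4ha1 differed there by -0.78 and was not called (adjusted p = 0.0669). Of 24 genes of signalling below VEGFR2 the calcineurin gene Ppp3ca rose by 0.83 in suspension (adjusted p = 0.0413), where 1.05% of all genes were called. The PI3-kinase subunit gene Pik3r1 rose in both suspended groups together (adjusted p = 0.0317), where 2.18% of all genes were called. Ppp3ca also passed there (adjusted p = 0.0253). Hspb1, a small heat shock protein gene of the same list, differed by -0.82 in suspension (adjusted p = 0.391).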
